A study of Mus musculus with 12 samples.

Results

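A set of 9 genes of thyroid follicular cells was followed through 12 mouse tumours: Tg, Tshr, Slc5a5, Pax8, Foxe1, Dio1, Duox2, Slc26a4 and Iyd. They were taken by symbol from a table of 23284 genes. All 9 were in the table, and 8 passed the filter on low counts. Slc26a4 did not. The tumours were primary neuroendocrine carcinomas of the thyroid from genetically engineered mice, profiled to find genes that Crebbp, a histone acetyltransferase, regulates. The genotype label read Rb1/Trp53/Crebbp for 5 tumours, called RPC here, and Rb1/Trp53 for the other 7, called RP, so that alterations of the tumour suppressor genes Rb1 and Trp53 were shared by both groups. The driver of recombination, the altered parts of the genes and the ages of the mice were not given in the sources used here.

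Thyroid hormone is made in follicular epithelial cells. Iodide is taken up from the blood and passed into the follicle lumen, where it is oxidised and attached to tyrosines of thyroglobulin; the iodinated protein is later taken back and digested to release hormone. Thyrotropin, acting through its receptor, drives these steps, and the transcription factors Pax8, Foxe1 and Nkx2-1 maintain the cell identity. The tumours, in contrast, bear the name of neuroendocrine cells; the C cell, which makes calcitonin, is the neuroendocrine cell of the thyroid and does not make thyroid hormone.

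Gene counts per tumour were 9.14 to 20.5 M in RPC and 9.11 to 57.3 M in RP tumours. A level of 3 counts, taken as the floor, corresponded to 0.0502 to 0.312 counts per M (CPM) and covers counting error alone. The neuroendocrine label fitted the C cell transcripts, since Calca, the calcitonin gene, took 2.36% to 11.6% of gene counts in RPC and 8.40% to 19.0% in RP tumours. Crebbp, the gene that defines the contrast, averaged 53.9 ± 4.19 CPM in RPC tumours (SD, n = 5) and 54.6 ± 20.04 CPM in RP tumours (SD, n = 7; log2 fold change -0.02 ± 0.20 SE; edgeR adjusted p = 0.957). Counts over the whole gene do not show which part was altered, so these values do not check the labels. The log2 fold change was 0.37 for Rb1 (adjusted p = 0.137) and -0.84 for Trp53 (adjusted p = 0.00918).

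The follicular genes did not move as a single block. Tg, Iyd, Pax8, Foxe1 and Tshr varied together over a range of 75.3- to 343-fold between the lowest and the highest tumour. Dio1 and Slc5a5 spanned only 6.70- and 5.37-fold, and Duox2, which spanned 4.403-fold, did not follow Tg. This grouping was made after the values were seen. Between the genotypes, 2 of the 8 tested genes were called lower in RPC tumours, Tshr and Dio1, where 18.3% of all 14989 tested genes were called, 8.61% lower and 9.64% higher. In the higher direction edgeR called 0 of the 8, and 0 at an unadjusted p under 0.05, and DESeq2 and limma voom with sample weights (voom here) called 0 each. In the lower direction 7 had an unadjusted edgeR p under 0.05, as did 17.6% of all tested genes; DESeq2 called 6, where it called 13.3% of all genes lower, and voom 7, where it called 20.4%. The log2 fold change (RPC over RP) was below 0 for 7 of the 8, with a median of -1.92, against -0.02 over all tested genes. The groups overlapped for all 8, that is 0 of 8 were separated, where 6.26% of all tested genes were separated and 2.64% were so with RPC lower. In bulk tumours, fewer cells of a type and less RNA per cell cannot be told apart.

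Thyroglobulin, the scaffold on which hormone is made, was by far the most abundant of the 9. Tg stood at 805, 26.2, 1682, 5488 and 334 CPM in RPC tumours 1 to 5, against 8998, 6754, 1482, 8496, 5926, 7955 and 8448 CPM in RP tumours 1 to 7. RPC 4 lay within the RP range and RP 3 lay below RPC 3 and RPC 4, so the groups overlapped, although 6 of 7 RP tumours were above every RPC tumour. The means were 1667 ± 2226 CPM in RPC (SD, n = 5) and 6866 ± 2607 CPM in RP tumours (SD, n = 7). The log2 difference of -2.04 ± 0.89 (SE) did not pass the edgeR test (adjusted p = 0.122). Without RPC 4, the RPC tumour with the most Tg, it was -3.27 (adjusted p = 0.0230). Leaving out any other single tumour left Tg uncalled (edgeR adjusted p = 0.0852 to 0.222). The 9 genes together took 0.00610% to 0.548% of gene counts in RPC tumours and 0.167% to 0.890% in RP tumours. Tg alone supplied 91.6% to 97.5% of those counts in 4 RPC tumours, 51.3% in RPC 2, and 93.4% to 98.0% in RP tumours.

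Iodide enters the follicular cell through the sodium-iodide symporter, encoded by Slc5a5. Slc5a5 stood at 4.66, 1.83, 4.25, 3.37 and 2.97 CPM in RPC tumours 1 to 5, against 8.01, 9.84, 2.50, 8.45, 7.70, 5.20 and 4.25 CPM in RP tumours 1 to 7. RP 3 lay within the RPC range and RP 7 lay at the level of RPC 3. The means, 3.42 ± 1.11 CPM in RPC (SD, n = 5) and 6.56 ± 2.63 CPM in RP tumours (SD, n = 7), differed by -0.94 ± 0.34 on the log2 scale (SE), short of the edgeR threshold (adjusted p = 0.0704). Without RP 3, the lowest RP tumour, the adjusted p was 0.0221. Leaving out any other single tumour left Slc5a5 uncalled (edgeR adjusted p = 0.0665 to 0.154).

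Slc26a4 encodes pendrin, an anion exchanger that can pass iodide into the lumen. It was at the floor in most libraries, with 1, 1, 3, 0 and 14 counts in RPC tumours 1 to 5 and 1, 0, 0, 2, 15, 1 and 4 counts in RP tumours 1 to 7. In CPM, RPC 5 held 1.01 and RP 7 held 0.254, and the 15 counts of RP 5, the deepest library, came to 0.251. No difference was detectable at this depth and none was tested.

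Duox2 is an oxidase that supplies the hydrogen peroxide for iodination. It stood at 1.89, 3.67, 2.36, 1.33 and 5.87 CPM in RPC tumours 1 to 5, against 4.78, 2.60, 2.08, 4.11, 2.91, 1.38 and 1.71 CPM in RP tumours 1 to 7. The groups covered nearly the same range, and the 2 RPC tumours with the least Tg, RPC 2 and RPC 5, had the most Duox2 of their group. The log2 fold change was 0.11 ± 0.40 (SE; edgeR adjusted p = 0.874), and its sign changed when RPC 5 or RP 6 was left out, to -0.29 and -0.01.

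Iyd encodes iodotyrosine deiodinase, which recovers iodide from mono- and diiodotyrosine. It stood at 9.71, 0.733, 28.7, 56.7 and 2.75 CPM in RPC tumours 1 to 5, against 60.1, 86.4, 32.0, 164, 91.0, 132 and 105 CPM in RP tumours 1 to 7. Only RPC 4 reached the RP range. The means were 19.7 ± 23.4 CPM in RPC (SD, n = 5) and 95.9 ± 44.0 CPM in RP tumours (SD, n = 7), and the log2 fold change of -2.28 ± 0.79 (SE) did not pass the test (edgeR adjusted p = 0.0623). Without RPC 4 it was -3.17 (adjusted p = 0.0179). Leaving out any other single tumour left Iyd uncalled (edgeR adjusted p = 0.0533 to 0.131).

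Dio1, the type 1 deiodinase, converts thyroxine to the more active triiodothyronine and is also a gene that thyroid hormone induces. It stood at 16.9, 17.0, 15.99, 25.6 and 14.7 CPM in RPC tumours 1 to 5, against 49.8, 84.0, 24.98, 72.5, 45.9, 57.9 and 98.5 CPM in RP tumours 1 to 7. Of the RPC tumours, 4 lay close together and below every RP tumour, and RPC 4 and RP 3 held nearly the same level. Dio1 averaged 18.0 ± 4.31 CPM in RPC (SD, n = 5) and 61.9 ± 24.9 CPM in RP tumours (SD, n = 7), 3.44-fold lower in RPC (log2 fold change -1.78 ± 0.29 SE; edgeR adjusted p = 0.00451). The call held when any of the 12 tumours was left out.

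The thyrotropin receptor gene, Tshr, was the other gene called lower. It stood at 0.504, 0.183, 2.88, 3.64 and 0.217 CPM in RPC tumours 1 to 5, against 6.26, 9.99, 1.87, 12.3, 8.27, 13.8 and 5.96 CPM in RP tumours 1 to 7. RPC 2 and RPC 5 were at or under the floor, with 2 and 3 counts, and RP 3 lay below RPC 3 and RPC 4. Tshr averaged 1.48 ± 1.65 CPM in RPC (SD, n = 5) and 8.35 ± 4.08 CPM in RP tumours (SD, n = 7), 5.57-fold lower in RPC (log2 fold change -2.48 ± 0.72 SE; edgeR adjusted p = 0.0333). The call was lost without any one of RPC 1, RPC 2, RPC 5, RP 2, RP 4 or RP 6, with adjusted p from 0.0581 to 0.0774.

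Pax8 and Foxe1 encode transcription factors that act on the gene for thyroglobulin, among others. Pax8 stood at 7.25, 0.825, 17.4, 33.9 and 1.01 CPM in RPC tumours 1 to 5, against 35.4, 70.4, 31.3, 69.8, 41.4, 83.1 and 54.1 CPM in RP tumours 1 to 7. Foxe1 stood at 3.34, 0.458, 11.3, 18.2 and 2.24 CPM in RPC tumours 1 to 5, against 19.2, 24.1, 10.7, 36.1, 18.8, 37.2 and 28.0 CPM in RP tumours 1 to 7. For Pax8 only RPC 4, and for Foxe1 RPC 3 and RPC 4, came above the lowest RP tumour, RP 3. The log2 fold changes, -2.19 ± 0.72 for Pax8 and -1.81 ± 0.64 for Foxe1 (SE), did not pass the test (edgeR adjusted p = 0.0522 and 0.0658). Without RPC 4, the RPC tumour highest for both, they were -3.02 and -2.48 (adjusted p = 0.0145 and 0.0194). Leaving out any other single tumour left both uncalled (edgeR adjusted p = 0.0515 to 0.114 for Pax8 and 0.0502 to 0.140 for Foxe1).

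**Figure D1:**
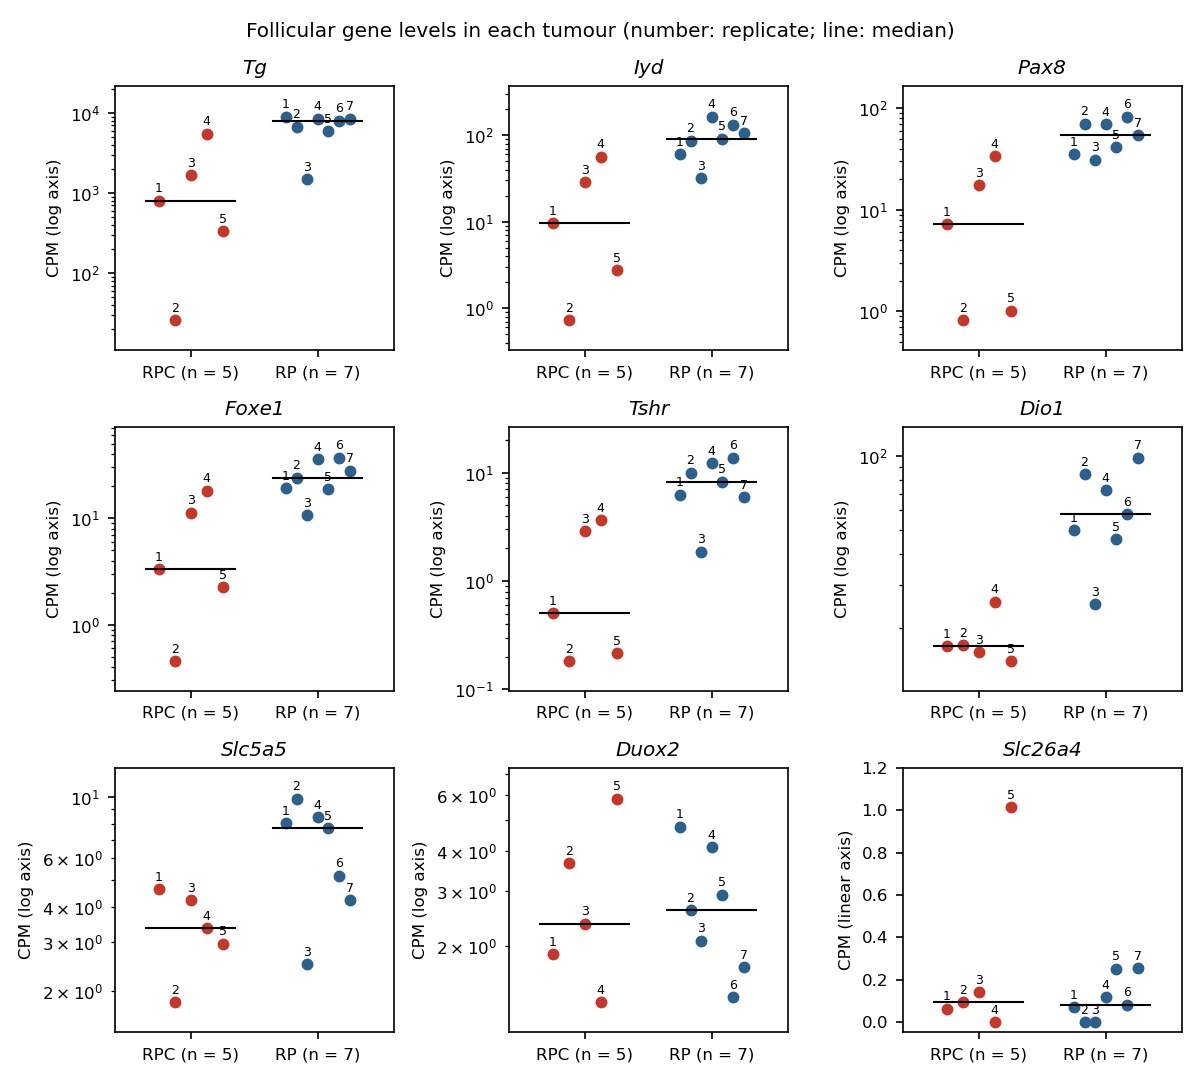
Level of each of the 9 genes in every tumour, as CPM on a log axis (a linear axis for Slc26a4), with 5 RPC tumours on the left and 7 RP tumours on the right; numbers are replicates and lines are medians. RPC 2 is lowest of all tumours for Tg, Iyd, Pax8, Foxe1 and Tshr, while the Dio1 levels of RPC tumours stay between 14.7 and 25.6 CPM.

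Compared per kilobase of exon, the mean levels covered several orders of magnitude. In RPC tumours Tg stood at 188 ± 251 CPM per kb (SD, n = 5), Iyd at 12.1 ± 14.4 and Dio1 at 9.16 ± 2.19, followed by Foxe1 at 2.53 ± 2.66 and Pax8 at 1.99 ± 2.30. In RP tumours Tg stood at 773 ± 293 CPM per kb (SD, n = 7), Iyd at 59.1 ± 27.1, Dio1 at 31.4 ± 12.6, Pax8 at 9.09 ± 3.28, Foxe1 at 8.87 ± 3.44, Slc5a5 at 2.24 ± 0.897, Tshr at 1.39 ± 0.679 and Duox2 at 0.413 ± 0.185. In RP tumours Tg stood clear of the next gene by more than the spread. The mean ± SD ranges overlapped for the neighbours Iyd and Dio1, Pax8 and Foxe1, and Slc5a5 and Tshr. Those ranges leave aside that the genes were measured in the same tumours. Tumour by tumour, Iyd lay above Dio1 in every RP tumour and Slc5a5 above Tshr in all but RP 6. Pax8 and Foxe1 were mixed. Slc26a4 was lowest there, at 0.0355 ± 0.034. In RPC tumours Slc5a5, at 1.17 ± 0.380, stood above Duox2, at 0.446 ± 0.267, and Tshr, at 0.247 ± 0.274. The mean ± SD ranges of Duox2, Tshr and Slc26a4, the last at 0.0843 ± 0.136, overlapped. The SD of Tg, Iyd, Foxe1 and Pax8 exceeded the mean, so the range of each overlapped those of all genes with lower means. Tumour by tumour, Duox2 lay above Slc26a4 in every RPC tumour, Tshr above Slc26a4 in all but RPC 5, and Foxe1 above Pax8 in all but RPC 1. Duox2 and Tshr, and Iyd and Dio1, were mixed. In RPC 2 Dio1, at 8.65 CPM per kb, lay above Tg, at 2.95. Some of the Tshr and Slc26a4 values were at or under the floor.

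The 5 RPC tumours fell in the same order for Tg, Iyd, Pax8, Foxe1 and Tshr, with RPC 4 highest, then RPC 3, RPC 1 and RPC 5, and RPC 2 lowest, although the order of RPC 5 and RPC 2 rests on 3 and 2 counts for Tshr and is not established there, and on 14 and 9 counts for Pax8. Dio1 and Slc5a5 did not keep this order: Dio1 was at 17.0 CPM in RPC 2 and 15.99 CPM in RPC 3, and Slc5a5 was highest in RPC 1. Among the RP tumours, RP 3 was lowest for Tg, Iyd, Pax8, Foxe1, Tshr, Dio1 and Slc5a5, and the other 6 lay within a narrow range of Tg, 5926 to 8998 CPM. The standard deviation of log2 CPM over the 12 tumours was 2.56 for Tg, 2.41 for Iyd, 2.29 for Pax8, 2.21 for Tshr and 1.91 for Foxe1. It was 1.01 for Dio1, 0.76 for Slc5a5 and 0.70 for Duox2.

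**Figure D2:**
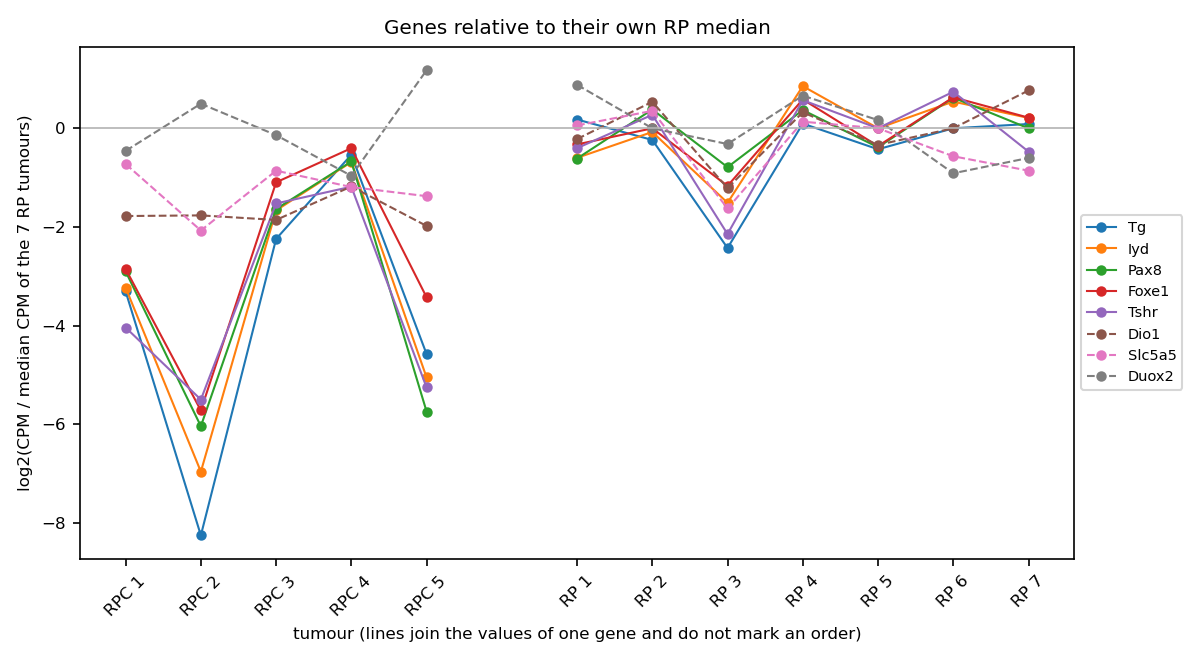
Each gene's level in every tumour as log2 of its CPM over its own median in the 7 RP tumours, RPC tumours on the left and RP tumours on the right; solid lines mark Tg, Iyd, Pax8, Foxe1 and Tshr, dashed lines Dio1, Slc5a5 and Duox2. The solid lines drop far below the dashed lines in RPC 1, RPC 2 and RPC 5, whereas the ranges of solid and dashed lines overlap in RPC 3 and RPC 4.

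Pairs of genes were set side by side over the same tumours. Among Tg, Iyd, Pax8, Foxe1 and Tshr, Pearson r of log2 CPM over 12 tumours was 0.914 to 0.991 in the 10 pairs. Dio1 stood at r of 0.755 to 0.838 with these 5, Slc5a5 at 0.685 to 0.765 and Duox2 at -0.470 to -0.300. The mean over all 28 pairs was 0.572, and the mean pairwise r over all tested genes was 0.00071. These values are descriptions, since all genes share the same 12 libraries and the genotype difference.

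With Tg as the yardstick, 6 of the 7 other tested genes had a positive r past the threshold (Benjamini-Hochberg adjusted permutation p under 0.05 over 14988 genes), as did 11.6% of all genes. Foxe1 stood at r = 0.978 (rho = 0.909), Iyd at 0.973 (rho = 0.874), Pax8 at 0.933 (rho = 0.832) and Tshr at 0.914 (rho = 0.853), each over n = 12 with a permutation p of 1e-05, the smallest that 100000 permutations can give, and an adjusted p of 0.00185. Slc5a5 stood at r = 0.762 (rho = 0.769; permutation p = 0.00216, adjusted p = 0.0187) and Dio1 at r = 0.755 (rho = 0.825; permutation p = 0.00125, adjusted p = 0.0138). Duox2 stood at r = -0.320 (rho = -0.028; permutation p = 0.318, adjusted p = 0.476). By Spearman's rho, where 3.59% of all genes had a positive rho past the threshold, 5 of the 7 were called. Slc5a5 was not (adjusted permutation p = 0.0597).

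Leaving out RPC 2 and RPC 5, the 2 tumours farthest from the median of Tg, left r at 0.923 for Iyd, 0.919 for Foxe1, 0.909 for Tshr, 0.865 for Pax8 and 0.853 for Dio1, and lowered it to 0.556 for Slc5a5 (permutation p = 0.0939, adjusted p = 0.309). None of the 7 then passed the adjusted threshold, and neither did any gene in the table (0%); the adjusted p was 0.0905 to 0.0914 for the first 5, whose unadjusted permutation p was 0.00027 to 0.00117. Within the 7 RP tumours alone r was 0.839 for Tshr, 0.817 for Foxe1, 0.811 for Dio1, 0.797 for Iyd, 0.727 for Slc5a5 and 0.579 for Pax8. There too 0 of the 7 and 0% of all genes passed the adjusted threshold in the exact permutation test. At an unadjusted exact permutation p under 0.05, 2 did, Foxe1 (p = 0.0282) and Dio1 (p = 0.0431), where 3.44% of all genes did with r above 0. Spearman's rho within RP was only 0.179 to 0.536 for these 6 genes, and RP 3, lowest for all of them, stood far from the other 6 tumours in Tg. Within the 5 RPC tumours no r is given, since 5 are too few.

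The relation was therefore also estimated with genotype in the fit. Taken from the genotype means, r with Tg stayed at 0.959 for Foxe1, 0.951 for Iyd, 0.872 for Pax8 and 0.835 for Tshr, and was 0.603 for Slc5a5, 0.453 for Dio1 and -0.407 for Duox2. In the edgeR fit with genotype and log2 CPM of Tg, the slope on Tg was called positive for 4 of the 7 genes, where 1.06% of all genes were. A gene that changed in proportion to Tg would have a slope of 1. Iyd had a slope of 0.86 ± 0.09 (SE; edgeR adjusted p = 0.00258), Tshr 0.76 ± 0.14 (adjusted p = 0.0295), Pax8 0.70 ± 0.12 (adjusted p = 0.0187) and Foxe1 0.70 ± 0.07 (adjusted p = 0.00258). Slc5a5 had a slope of 0.20 ± 0.09 (adjusted p = 0.293), Dio1 0.11 ± 0.07 (adjusted p = 0.470) and Duox2 -0.15 ± 0.12 (adjusted p = 0.576). The calls of Iyd and Foxe1 held when any of the 12 tumours was left out. Those of Pax8 and Tshr were lost without RPC 4 (adjusted p = 0.216 for both), that of Pax8 also without RPC 2 (adjusted p = 0.0716), and that of Tshr also without RPC 5 (adjusted p = 0.0546) or RP 3 (adjusted p = 0.0642).

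**Figure D3:**
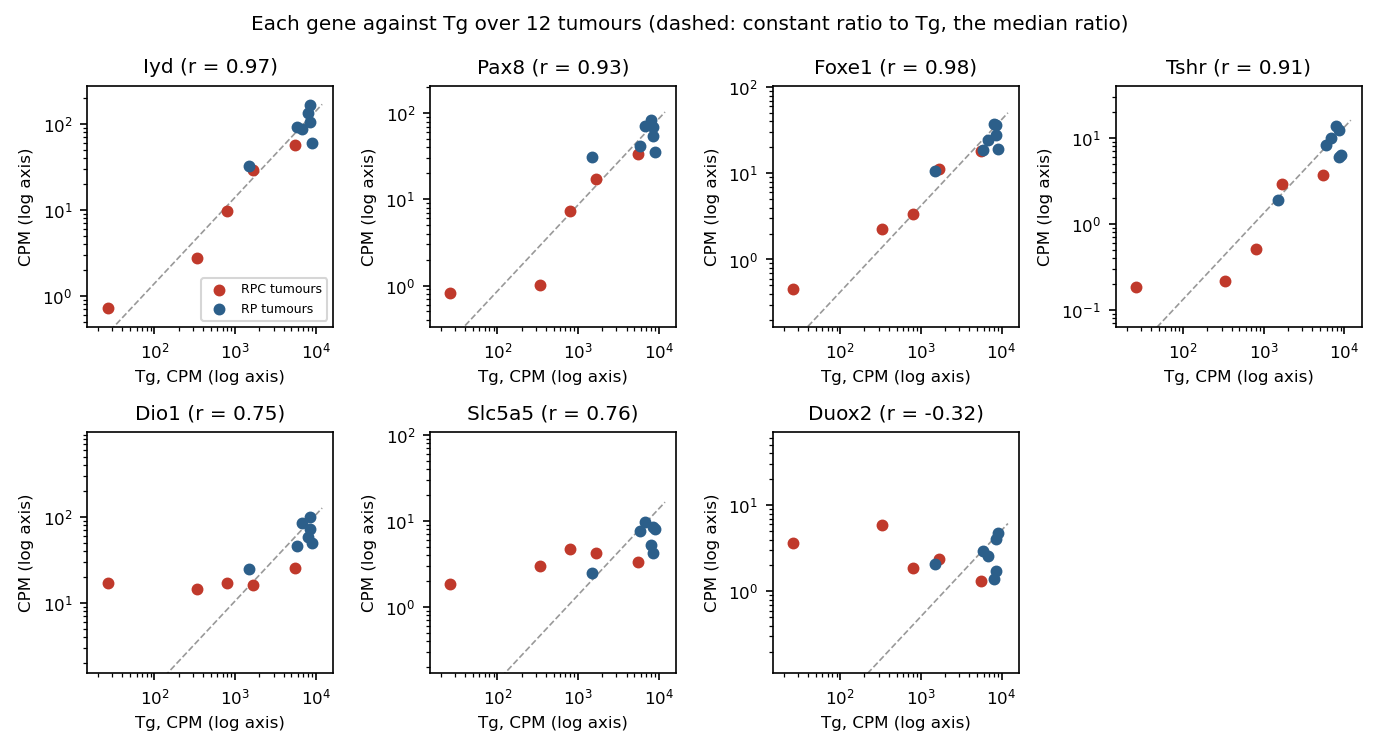
Level of 7 genes against Tg in 12 tumours, both as CPM on log axes (RPC red, RP blue), with a dashed line where the ratio to Tg is constant at its median. Iyd, Pax8, Foxe1 and Tshr lie nearer to the line than Dio1, Slc5a5 and Duox2, which change little among the RPC tumours while Tg reaches down to 26.2 CPM.

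The ratio of each gene to Tg was also computed. Iyd stood at 8.24 to 28.0 CPM per 1000 CPM of Tg in RPC tumours (median 12.1) and at 6.68 to 21.6 in RP tumours (median 15.4), so its ratios covered nearly the same range. Foxe1 stood at 3.32 to 17.5 in RPC and at 2.13 to 7.24 in RP tumours. Tshr stood at 0.626 to 6.99 in RPC and at 0.695 to 1.74 in RP tumours. Pax8 stood at 3.03 to 31.5 in RPC and at 3.93 to 21.1 in RP tumours. The upper ends in RPC came from RPC 2 alone, with 8 counts of Iyd, 5 of Foxe1, 2 of Tshr (under the floor) and 9 of Pax8. The next highest RPC ratios were 17.1 for Iyd, 6.72 for Foxe1, 1.71 for Tshr and 10.3 for Pax8, within the RP ranges. Dio1 stood at 4.66 to 650.4 CPM per 1000 CPM of Tg in RPC tumours and at 5.53 to 16.9 in RP tumours. Slc5a5 stood at 0.615 to 69.9 in RPC tumours and at 0.503 to 1.69 in RP tumours. The highest ratio was that of RPC 2 in each case, and in that tumour Tg was lowest. The standard deviation of the log2 ratio over 12 tumours was 0.59 for Iyd, 0.79 for Foxe1, 0.93 for Pax8 and 0.99 for Tshr, each smaller than that of Tg or of the gene itself. It was 1.92 for Dio1, 2.04 for Slc5a5 and 2.86 for Duox2; for genes that vary much less than Tg a large value here follows from the standard deviations given above and adds nothing to them.

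At a given level of Tg, 0 of the 7 other genes were called different between the genotypes, where 0.160% of all genes were called. At an unadjusted p under 0.05 there was 1, Dio1, whose log2 fold change at a given Tg level was -1.39 ± 0.40 (SE; edgeR adjusted p = 0.156). The log2 fold change there was -0.83 for Pax8 (adjusted p = 0.429), -0.73 for Tshr (adjusted p = 0.5996), -0.54 for Iyd (adjusted p = 0.525) and -0.26 for Foxe1 (adjusted p = 0.964). Tg itself was higher in 6 of the 7 RP tumours than in every RPC tumour, so the covariate takes up part of the genotype contrast. With so few genes called in this fit, the 0 calls do not show equal levels.

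Promoter sequences are shown for Iyd and Pax8, whose slope on Tg within genotypes was called, and for Dio1 and Duox2, whose slope was not. Each is the 250 bases before the gene's start in the RefSeq table of build GRCm38.p6, 5′ to 3′ on the gene's strand, with matches to the core that the follicular factor NKX2-1 binds, CAAG or its reverse complement CTTG, in capitals. No sequence was at hand for Tg, Tshr or Foxe1. Those of Slc5a5, whose slope was not called, and of Slc26a4, which was not tested, held this core 3 times each and are not shown. The 4 shown are thus a selection, and the match counts given after them cover these 4 alone. They lie at chr10:3540024-3540273 (plus strand) for Iyd, chr2:24475600-24475849 (minus strand) for Pax8, chr4:107307169-107307418 (minus strand) for Dio1 and chr2:122298228-122298477 (minus strand) for Duox2. The counts themselves were made on mm9.
Iyd: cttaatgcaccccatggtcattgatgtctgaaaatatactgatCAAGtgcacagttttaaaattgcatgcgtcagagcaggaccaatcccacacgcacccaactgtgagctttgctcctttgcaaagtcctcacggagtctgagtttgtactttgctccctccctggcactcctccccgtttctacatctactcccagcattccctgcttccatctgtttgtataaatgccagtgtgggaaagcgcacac
Pax8: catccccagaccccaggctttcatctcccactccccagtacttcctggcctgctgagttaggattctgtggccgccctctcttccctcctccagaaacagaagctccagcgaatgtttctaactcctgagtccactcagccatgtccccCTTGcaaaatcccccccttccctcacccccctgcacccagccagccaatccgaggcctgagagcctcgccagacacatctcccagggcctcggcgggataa
Dio1: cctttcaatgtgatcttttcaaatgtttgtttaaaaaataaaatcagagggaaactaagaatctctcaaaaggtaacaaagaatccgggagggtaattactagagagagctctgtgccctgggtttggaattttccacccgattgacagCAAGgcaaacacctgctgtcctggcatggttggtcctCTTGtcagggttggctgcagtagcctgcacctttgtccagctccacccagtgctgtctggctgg
Duox2: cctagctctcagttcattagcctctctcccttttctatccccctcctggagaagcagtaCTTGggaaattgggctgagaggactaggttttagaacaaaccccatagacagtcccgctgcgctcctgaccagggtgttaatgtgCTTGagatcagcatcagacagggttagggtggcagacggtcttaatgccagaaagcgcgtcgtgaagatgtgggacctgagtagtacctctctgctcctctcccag
The core was found 1 time for Iyd, 1 time for Pax8, 2 times for Dio1 and 2 times for Duox2; 86.6% of 32851 windows of the same length hold it. The longer form CTCAAG, or CTTGAG on the other strand, which contains the core, was found 1 time, for Duox2, and is in 13.3% of windows. The forkhead core AAACA, or TGTTT on the other strand, the kind of site Foxe1 binds, was found 1 time for Iyd, 2 times for Pax8, 3 times for Dio1 and 0 times for Duox2, and is in 46.4% of windows. The hormone response half-site AGGTCA, or TGACCT on the other strand, was found 0 times in the 4 windows and is in 14% of all. The box TATAAA, or TTTATA on the other strand, was found 1 time, for Iyd, and is in 12.4% of windows. A match describes these letters and is not evidence of a bound site.

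The rest of the hormone pathway was read from a list of 20 other genes, all tested. Of these, 5 were called lower in RPC tumours, among them Cftr, Gpx3, Ctsb and Kcne2, and 0 higher (0 also at an unadjusted p under 0.05 by edgeR, and 0 by DESeq2 and by voom), with a median log2 fold change of -0.67. Over all tested genes, 8.61% were called lower and 9.64% higher. Positive r with Tg past the threshold was found for 10 of the 20, where 11.6% of all genes had one. Slc26a7, an anion transporter of the follicular cell, stood at r = 0.938, and Slc5a8, a monocarboxylate transporter, at r = 0.847. Duoxa2, the maturation factor of Duox2, stood at r = 0.7999 (rho = 0.510), unlike Duox2 itself, and averaged 2.37 ± 2.74 CPM in RPC (SD, n = 5) and 5.73 ± 2.59 CPM in RP tumours (SD, n = 7). Within genotypes the slope on Tg was called for Slc26a7 (edgeR adjusted p = 0.0224), but not for Slc5a8 (0.236) or Duoxa2 (0.622). Duox1, the neighbouring oxidase, stood at r = 0.163; it was chosen for mention after its value was seen.

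Genes for the uptake and digestion of thyroglobulin were divided. Ctsl and Ctsb, lysosomal cathepsins, stood at r = 0.963 and 0.906, and Lrp2, megalin, at r = 0.806, while the cathepsins Ctsd and Ctsk, named to complete the family, stood at r = 0.231 and -0.099 and did not pass the threshold. Cftr, the chloride channel, averaged 1.01 ± 0.763 CPM in RPC (SD, n = 5) and 4.96 ± 2.09 CPM in RP tumours (SD, n = 7; log2 fold change -2.29 ± 0.47 SE; edgeR adjusted p = 0.00997), with r = 0.841. Gpx3, an extracellular glutathione peroxidase, was called lower, with a log2 difference of -1.42 ± 0.29 (SE; edgeR adjusted p = 0.0101) and had r = 0.785. The slope on Tg within genotypes was called for Ctsl (edgeR adjusted p = 0.0115), but not for Ctsb (0.147), Lrp2 (0.163), Cftr (0.157) or Gpx3 (0.349). Cathepsins and peroxidases are made by many cell types.

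Other genes of follicular identity were mixed. Of 5 tested, 2 were called lower in RPC tumours and 1 higher, where 8.61% and 9.64% of all tested genes were. Cdh16, a kidney and thyroid cadherin, averaged 7.86 ± 8.38 CPM in RPC (SD, n = 5) and 40.7 ± 14.5 CPM in RP tumours (SD, n = 7; log2 fold change -2.38 ± 0.63 SE; edgeR adjusted p = 0.0251), with r = 0.962 with Tg. Nkx2-1, which C cells also express, averaged 233 ± 27.2 CPM in RPC (SD, n = 5) and 316 ± 27.2 CPM in RP tumours (SD, n = 7; log2 fold change -0.44 ± 0.10 SE; edgeR adjusted p = 0.0165), with r = 0.722. Pde8b, a cyclic AMP phosphodiesterase, was higher (log2 fold change 0.65 ± 0.19 SE; edgeR adjusted p = 0.0310), with r = -0.768 (adjusted permutation p = 0.0130). Within genotypes the slope on Tg was called for Cdh16 (edgeR adjusted p = 0.00304), but not for Nkx2-1 (0.646) or Pde8b (0.393). Downstream of the thyrotropin receptor, 2 of 14 signalling genes were called higher, Adcy3 (log2 fold change 0.74) and Prkaca (0.35), and 1 lower, Rapgef3 (-0.99), which is near the shares called among all tested genes, 9.64% and 8.61%. Of 7 thyroid hormone response genes, 0 were called in either direction by edgeR, with 0 at an unadjusted p under 0.05; DESeq2 called 0 and voom 1 in each direction.

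Markers of other cell types were read beside these values, and their part in the differences was not tested. Over all tested genes, 8.61% were called lower in RPC and 9.64% higher, and 11.6% had a positive r with Tg past the threshold. The summed level of 12 adipocyte markers was 75.6 to 170 CPM in RPC tumours and 97.7 to 2225 CPM in RP tumours, and 11 of the 12 were called lower in RPC, with a median log2 fold change of -3.30; Plin1, the lipid droplet coat protein, had -3.66 (edgeR adjusted p = 0.0193), Lipe -1.25 (0.0230) and Pck1 -3.81 (0.0233). Of the 12, 1 had a positive r with Tg past the threshold, near the 11.6% of all genes. The mean z-scored log2 CPM of these markers, the adipocyte score, was -1.01 to -0.362 in RPC and -0.688 to 1.58 in RP tumours. With this score in the fit, calls over all tested genes fell from 2736 to 120. Those of both Tshr (log2 fold change -1.65, edgeR adjusted p = 0.259) and Dio1 (-1.23, adjusted p = 0.0912) were lost. The score goes along with genotype, so the 2 cannot be told apart in this fit. The C cell markers summed to 25284 to 138154 CPM in RPC and 95509 to 233660 CPM in RP tumours; 0 of 11 were called by edgeR (2 lower at an unadjusted p under 0.05, and 2 by DESeq2 and by voom), and 4 followed Tg, among them Calca (r = 0.885, rho = 0.825; adjusted permutation p = 0.00783), which is the most abundant C cell transcript and whose genotype difference was -1.21 ± 0.50 (log2, SE; edgeR adjusted p = 0.103). A positive relation to Tg over the 12 tumours was thus not limited to follicular genes. The slope of Calca on Tg within genotypes was not called (edgeR adjusted p = 0.0822). Cell cycle genes went the other way, with 7 of 8 called higher in RPC, led by Mcm6 (log2 fold change 0.87 ± 0.14 SE; edgeR adjusted p = 0.00448), and 7 of 8 with a negative r past the threshold, where 9.81% of all genes had one. Their summed level was 839 to 2422 CPM in RPC and 547 to 1207 CPM in RP tumours.

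Of 8 simple epithelium genes, 3 were called lower, Cldn4 (log2 fold change -1.48), Cdh1 (-1.38) and Cldn3 (-1.15), and 4 followed Tg. Their summed levels were 1858 to 3911 CPM in RPC and 3380 to 4435 CPM in RP tumours. Of all tested genes 8.61% were called lower and 11.6% followed Tg, and 1 call in a list of 8 is near the first share. Lower calls numbered 2 of 9 for endothelium (Esam and Emcn), 1 of 8 for fibroblasts (Pdgfra), 1 of 2 tested for lymphocytes (Cd79a), 1 of 8 for airway and squamous epithelium (Bpifa1), 1 of 3 tested for liver and kidney (Cyp2e1), and by edgeR 0 each of 8 for macrophages, 3 for parathyroid and 6 for skeletal muscle. At an unadjusted p under 0.05 these last lists had 1, 0 and 0, by DESeq2 1, 0 and 0, and by voom 0 each. Levels in these lists were uneven within each genotype. Skeletal muscle genes summed to 6.60 to 3340 CPM in RPC and 5.20 to 3096 CPM in RP tumours. Macrophage genes summed to 185 to 511 and 252 to 1130 CPM. The parathyroid gene Pth ran from 0.378 to 1066 CPM in RPC and from 0.174 to 2501 CPM in RP tumours. The 0 calls therefore do not show that these tissues were absent or even. Within the liver and kidney list Alb was at 0 in 11 tumours, while Apoa1 averaged 102 CPM in RPC and 40.3 CPM in RP tumours. Within the lymphocyte list Ms4a1 was at 0 in 10 tumours, while Cd79a averaged 3.80 CPM in RPC and 19.3 CPM in RP tumours.

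**Figure D4:**
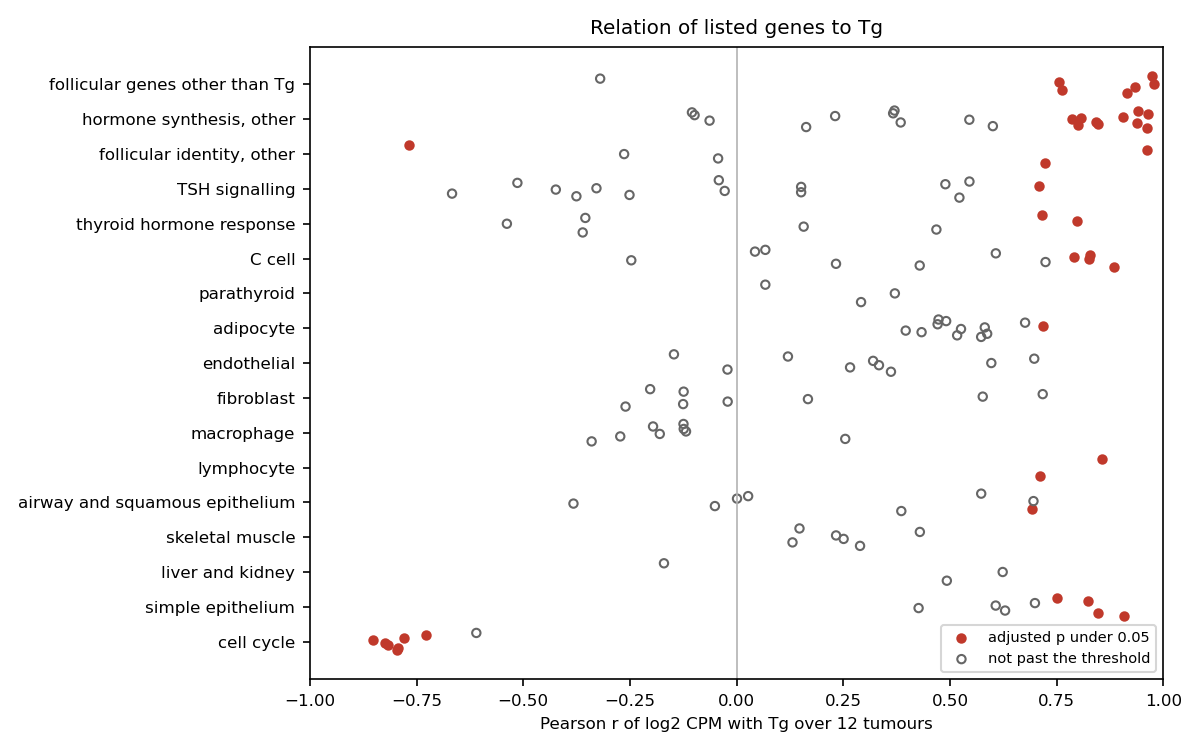
Pearson r of log2 CPM with Tg over 12 tumours for the tested genes of each list, filled where the adjusted permutation p is under 0.05. Of the 7 follicular genes 6 lie to the right, with Duox2 at -0.32, and 7 of 8 cell cycle genes pass on the left.

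The genes most like the follicular genes were sought by r with the mean z-scored log2 CPM of the 8 tested ones over 12 tumours, among genes of at least 1 CPM on average. The first 10 were Rasal3, Slc4a5, Tapbp, Rwdd3, Ces1d, Serpine2, Klhl14, Mta3, Klc4 and Arhgap6, with r of 0.958 to 0.970. All 10 were called lower in RPC tumours, which their choice largely fixed, since the score was below 0 in every RPC tumour and above 0 in all RP tumours but RP 3. Slc4a5, a sodium bicarbonate cotransporter, averaged 11.6 ± 9.21 CPM in RPC (SD, n = 5) and 43.6 ± 11.1 CPM in RP tumours (SD, n = 7; log2 fold change -1.92 ± 0.44 SE; edgeR adjusted p = 0.0157). Tapbp, a chaperone of antigen loading, averaged 154 ± 53.6 CPM in RPC (SD, n = 5) and 262 ± 38.6 CPM in RP tumours (SD, n = 7; log2 fold change -0.76 ± 0.20 SE; edgeR adjusted p = 0.0232). None of the 10 belonged to the pathway or marker lists.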

How the data were processed

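The values are raw read counts, which the authors deposited gene by gene for 12 tumours. TRIzol extraction, oligo(dT) selection and the NEBNext Ultra kit are named per the labels' protocols. The tools and build named per the submitters' processing notes were bcl2fastq (1.8.2), TopHat2 (2.0.12), HTSeq (0.6.1) and mm9. The gene annotation and strand setting were not given in the sources used here. Without strand, reads of Tg, Pax8 and Foxe1 cannot be told from those of opposite-strand transcripts that share 1.26%, 6.06% and 3.64% of their exonic length (GENCODE M21).

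The 5 summary rows were left out (13.1% to 17.6% of reads outside genes, among others). Genes passing edgeR's filterByExpr (minimum count 10), 14989 in all, were scaled by TMM and tested with the robust quasi-likelihood F test (R 4.3.3, edgeR 4.0.16), genotype alone, with Benjamini-Hochberg adjustment over all of them and calls at an adjusted p under 0.05. Standard errors are the log2 fold change over the square root of F. CPM use TMM-scaled libraries, and log2 CPM a prior count of 2. Every tested gene was correlated with Tg, with two-sided p from 100000 permutations, or all orderings for the 7 RP tumours (numpy 2.4.6). Fits with Tg as a covariate give the genotype difference at a given Tg level; the slope on Tg was added after seeing the data. The fits were tested on simulated data.

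The 9 genes and the lists were chosen with earlier results of these data known. Named by rule were the 9 genes, up to 3 called genes with the smallest p in each list, hormone synthesis and identity genes with an adjusted p under 0.05 for r with Tg, the 10 genes most like the 9, Calca, and the engineered genes. Ctsb and Kcne2 are named as called genes of their list. Not every gene named by the rule is reported here. The labels do not tie tumours to animals, and the p-values therefore reflect only variation among the libraries at hand, which may be technical. Library pairs differed by more than sampling noise. The alternatives were DESeq2 1.42.0, limma 3.58.1 voom with sample weights, other scalings, filters and prior counts, a 1.5-fold threshold, a replicate block, an adipocyte covariate and leaving out tumours.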

Additional observations from a re-analysis of the deposited data

Results flagged for a closer look

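A sample far from the others of its group was looked for in 18 sets, the 9 genes in each genotype, and found in 4; chance alone marks about 1 in 20. Tg in RP 3, at 1482 CPM, lay far below the other RP tumours, which held at least 5926 CPM. Tshr in RP 3, at 1.87 CPM, was likewise far below the other RP tumours. Dio1 in RPC 4, at 25.6 CPM, lay above the other RPC tumours, which held at most 17.0 CPM. Slc26a4 in RPC 5, at 1.01 CPM from 14 counts, lay above the other RPC tumours, which held 0 to 3 counts.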

How the results depend on the processing

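The count of follicular genes called between the genotypes, 2 in the reported fit, was 6 with DESeq2, 7 with limma voom and sample weights together, 1 against a 1.5-fold threshold and 0 with the adipocyte score as covariate, and 1 to 6 when single tumours were left out; the cause was not tested. All tested genes called, 2736 in the reported fit, numbered 3985 with DESeq2, 6357 with voom and sample weights, 153 against the 1.5-fold threshold, 120 with the adipocyte score, and 1076 (without RPC 2) to 3494 (without RP 3) when single tumours were left out; without RPC 1 there were 1314, without RP 4 1559, without RP 2 1663, without RP 6 1685, without RPC 3 1760 and without RPC 5 1808. Leaving out RP 3 and RPC 4 together gave 7 follicular genes and 4144 in all, but those tumours were chosen for their Tg level, so these counts support nothing. Of the other listed genes, 38 were called, and 14 (without RPC 2) to 42 with single tumours left out. Other scalings and filters left 2 follicular genes called. Genes following Tg, 6 in the reported analysis, numbered 5 to 6 with single tumours left out. They numbered 0 in the RP tumours alone and 0 without the 2 tumours farthest from the median of Tg. Fewer tumours were used in both, and in the RP tumours a few genes alone could not pass after adjustment. Slopes on Tg were called for 2 (without RPC 4) to 4 genes. The genotype difference at a given Tg level was called for 0 follicular genes with each tumour left out, 0 to 0, and 0 with Iyd as the covariate. The limit given with that fit holds for these counts too.

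Duox2 alone changed sign, with a log2 fold change of -0.022 with voom and sample weights, -0.13 in replicates 1 to 5, -0.074 with the adipocyte score, -0.48 with Tg in the fit and -0.29 to 0.29 with single tumours left out, and with r of 0.233 in RP tumours alone and 0.2495 without the 2 farthest. Tumour numbers 1 to 5 occur in both groups and were taken as names only. For same-numbered tumours the r of deviations from the group means was 0.159, -0.056, -0.0455, 0.121 and -0.0431. These values cannot show whether such tumours share an animal, a date or a batch, since other pairs were not compared. In replicates 1 to 5, without the replicate block 1 follicular gene and 877 in all were called, and with the block 1 and 444; Duox2 had -0.22 with the block. Depth limits Slc26a4, and Tshr in RPC 2 and RPC 5.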
